A study of Mus musculus with 19 samples.

Results

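The 720 distal intergenic peaks described here are H3K27ac ChIP-seq peaks that lie outside annotated genes, at least 100000 bp from the nearest transcription start site (TSS) named for them, and under 5000 bp wide. They were drawn from 14035 listed peaks, which are the regions that the study's own test called higher or lower between 2 groups of mouse microglia in 1 of 5 comparisons. Of 5135 listed intergenic peaks, 752 met the distance rule at any width, and the 32 of these that were 5000 bp or wider were left out. A peak can be listed in more than 1 comparison, and peaks that shared at least 1 bp were joined, which gave 457 distinct regions near 262 genes.

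All mice were on the C57BL/6 strain. WT mice had the genotype PRMT1Ifl/f (spelled PRMT1Ifl/fl in the sample titles), which is a floxed Prmt1 gene and no Cre. KO mice were PRMT1fl/fl; cx3r1cre-ert2, in which a tamoxifen-activated Cre is made from the Cx3cr1 promoter of microglia and other myeloid cells, and per the study's methods mice of both genotypes received tamoxifen. The groups with values were WT basal (normal diet, labelled 11 weeks), WT CPZ CD11c-low and WT CPZ CD11c-high (0.2% cuprizone diet for 5 weeks) and KO CPZ CD11c-low (the same diet), with 2 H3K27ac libraries each and an input library beside each except KO replicate 1. The labels give an age of 4 to 6 weeks for the mice fed cuprizone, whereas the study's methods place the tamoxifen injections before the diet and its start at a later age. Microglia were sorted on CD11b and CD45, and cuprizone samples were further divided by CD11c. KO basal H3K27ac libraries were not analysed here. The 2 libraries of a group are named as independent biological replicates in the protocol, and the number of mice behind each is not given.

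H3K27ac, acetylation of lysine 27 on histone H3, marks active promoters and enhancers. Enhancers can act on a gene over long stretches of DNA by looping to its promoter, so the nearest gene is an address and need not be the target. In microglia, lineage factors such as PU.1 open enhancers and signal-dependent factors such as AP-1 act beside them. Cuprizone is a copper chelator that damages oligodendrocytes and removes myelin, and CD11c is a surface marker carried by many microglia in demyelinated tissue. PRMT1 is the main enzyme that places asymmetric dimethyl marks on arginines.

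Sequences are shown for 3 peaks that carried large differences and recur among the results. Each 300-base stretch is the + strand of the GRCm38.p6 (mm10) genome at the centre of the peak. No base is in capitals because none of the 9 motifs searched for, listed further on, was matched in these central stretches. The Igf1 stretch is chr10:87696073-87696372, the Slc7a11 stretch chr3:50607022-50607321 and the Naaladl2 stretch chr3:25053208-25053507.
Igf1: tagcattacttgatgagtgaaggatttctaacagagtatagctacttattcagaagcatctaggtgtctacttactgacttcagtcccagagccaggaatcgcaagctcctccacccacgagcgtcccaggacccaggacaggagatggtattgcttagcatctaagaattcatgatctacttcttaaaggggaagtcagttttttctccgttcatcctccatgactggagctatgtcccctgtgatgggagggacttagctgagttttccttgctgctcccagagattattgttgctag
Slc7a11: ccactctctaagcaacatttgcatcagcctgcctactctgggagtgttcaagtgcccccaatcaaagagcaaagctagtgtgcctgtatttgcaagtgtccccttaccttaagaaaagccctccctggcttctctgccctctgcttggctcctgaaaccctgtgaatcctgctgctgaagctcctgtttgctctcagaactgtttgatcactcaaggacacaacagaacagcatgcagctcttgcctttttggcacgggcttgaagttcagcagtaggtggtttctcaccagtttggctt
Naaladl2: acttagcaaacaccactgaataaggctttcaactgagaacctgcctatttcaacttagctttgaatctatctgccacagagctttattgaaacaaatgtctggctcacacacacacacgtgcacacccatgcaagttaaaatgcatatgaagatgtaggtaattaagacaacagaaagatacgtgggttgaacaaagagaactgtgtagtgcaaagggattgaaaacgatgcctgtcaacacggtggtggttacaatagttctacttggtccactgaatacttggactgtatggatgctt
For Slc7a11, the 300-base stretch of the same peak with the most motif matches is added, a choice made after the central stretches were found to hold none. Capitals mark the matches. In the Slc7a11 stretch (chr3:50605264-50605563, + strand) there were 3 IRF matches, of which 2 overlap each other. The corresponding stretches of the other peaks, not printed, held a RUNX and a C/EBP match at Igf1 and a RUNX match at Naaladl2.
Slc7a11: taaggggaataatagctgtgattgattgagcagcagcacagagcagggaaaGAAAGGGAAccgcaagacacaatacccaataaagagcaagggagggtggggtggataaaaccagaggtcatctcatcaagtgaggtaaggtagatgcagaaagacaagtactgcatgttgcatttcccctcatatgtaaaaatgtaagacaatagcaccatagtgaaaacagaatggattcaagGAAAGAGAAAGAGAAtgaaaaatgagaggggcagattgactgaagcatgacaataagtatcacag

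Values are normalized tag counts, that is, the reads of a library in a peak after the authors scaled the 4 libraries of a comparison to a common size. Levels can therefore be compared between groups within a comparison. Since each library's values step by the worth of a single read, whole reads could be recovered from them. Relative depth ran from 56.2% and 85.1% of the mean library in WT basal to 117.6% in WT CPZ CD11c-low replicate 1. The median number of reads per distal intergenic peak was 22 and 29 in the WT basal libraries and 61 and 74 in the CD11c-high libraries of their comparison. Of the microglia markers, Tmem119, Sall1 and P2ry12 had a listed peak of any kind, with up to 5181, 617 and 63.0 tags. Cx3cr1 and Csf1r had no listed peak, which says only that no peak at them was called changed. Of the markers of other cells, F13a1, Lyve1, Mbp, Mog, Slc1a3, Pecam1, Flt1, Kdr and Ms4a1 had listed peaks, the highest at 438 tags (Flt1), and no neuronal marker had one. Prmt1 had no listed peak, so its deletion could not be checked here. A tag count is an average over the sorted cells: fewer cells bearing the mark and less of it per cell cannot be told apart.

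The label "over 100 kb from genes" depends on the annotation. Against the RefSeq transcript starts of GRCm38.p6, 57 of the 457 regions lay within 100 kb of a start. Against the GENCODE M21 set, which holds many more noncoding transcripts, 389 did, and the median distance to a GENCODE start was 29850 bp. A GENCODE gene of any type was overlapped by 95 regions (20.8%) and a GENCODE protein-coding gene by 22 (4.81%), and the median distance to a protein-coding gene was 149200 bp. By the files' own distances the median peak lay 170332 bp from its TSS, the farthest 960003 bp, and 273 peaks lay at 200 kb or more. The peaks nearest the distance limit were at E030018B13Rik (100195 bp) and Hnrnpk (100205 bp) inside it and at Apaf1 (99598 bp) and Supt20 (99691 bp) outside it. The widest peak inside the width limit was at Tbl1xr1 (4939 bp), and the narrowest outside it at Sall1 (5104 bp).

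Most distal intergenic peaks were higher after cuprizone than in WT basal microglia. In WT CPZ CD11c-low cells, 166 of 212 peaks were higher and 46 lower, and in WT CPZ CD11c-high cells 258 of 403 were higher and 145 lower. Over all listed peaks the share called higher was 88.7% of 4886 in the first comparison and 74.1% of 7520 in the second, and the share called lower 11.3% and 25.9%. Distal intergenic peaks were thus higher in 78.3% and 64.0%, below the share of the whole list both times. Calls are those of limma on log2(tags + 1) with a Benjamini-Hochberg adjusted p under 0.05 over all listed peaks of a comparison. Since a peak was listed because it had been called on these same libraries, the fit gives the size and error of a difference and is not separate evidence for it, and an exact permutation test of 2 libraries against 2 cannot go below p = 0.333. The replicates of the 2 groups did not overlap at any of the 720 peaks, nor at any of the 14035 listed peaks.

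The split depends on the scaling. When the libraries were rescaled by TMM factors computed on the listed peaks, the median difference over all listed peaks moved by -1.51 on the log2 scale in the CD11c-low comparison and by -1.45 in the CD11c-high comparison. The peaks called were then 39 higher and 46 lower in the first (45.9% higher) and 112 higher and 146 lower in the second (43.4% higher). After it the median difference over all listed peaks was 0.03 and 0.08. The list holds changed peaks only, so TMM has no unchanged peaks to centre on and cannot decide which scaling is right. A sign that turns under it marks a difference smaller than the shift.

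**Figure D1:**
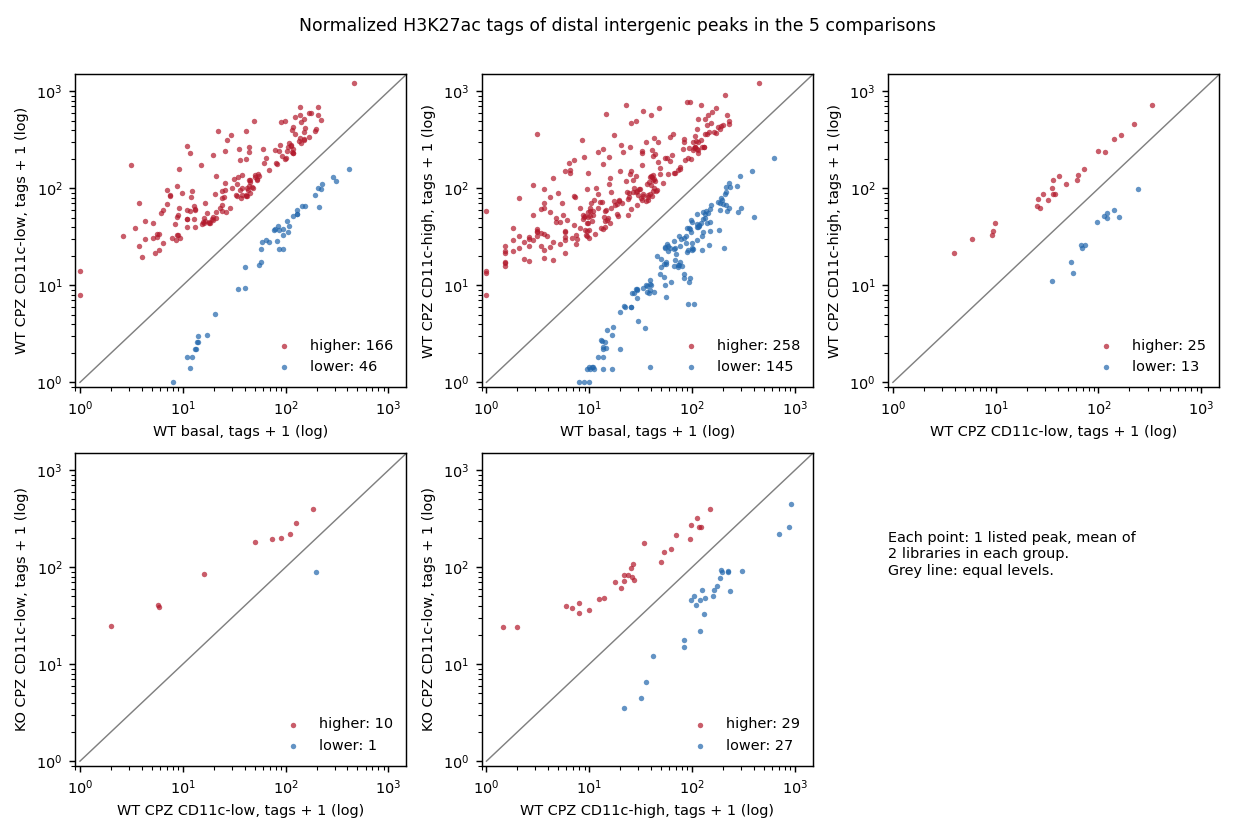
Mean normalized tag count of each distal intergenic peak in the first group of a comparison (x axis, log scale of tags + 1) against the second group (y axis, same scale), with 1 panel for each of the 5 comparisons, points coloured by direction and the line of equal levels. Against WT basal, 166 points lie above the line and 46 below in WT CPZ CD11c-low, and 258 above and 145 below in WT CPZ CD11c-high.

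The peaks that were higher after cuprizone started low. In WT CPZ CD11c-low cells their median level was 100.2 tags against 28.9 in WT basal, a median log2 difference of 1.76, and 69 of 166 differed by more than 4-fold. In WT CPZ CD11c-high cells the median was 90.6 against 17.8 tags, a median log2 difference of 2.22, and 144 of 258 differed by more than 4-fold. The same medians over all listed higher peaks were 1.66 and 1.92, and over higher intergenic peaks under 100 kb from a TSS 1.75 and 2.03. Peaks that were lower went from a median of 82.8 to 30.3 tags in CD11c-low cells (median log2 difference -1.39, against -1.47 for all listed) and from 73.5 to 21.05 tags in CD11c-high cells (-1.88 against -1.78).

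Against WT basal, the share of higher peaks was smaller the farther an intergenic peak lay from its TSS. Among intergenic peaks under 5 kb wide in WT CPZ CD11c-low cells it was 93.6% at 1 to 10 kb, 88.8% at 10 to 50 kb, 83.6% at 50 to 100 kb, 80.3% at 100 to 200 kb and 75.0% at 200 kb or more. In WT CPZ CD11c-high cells the same shares were 82.8%, 76.4%, 70.4%, 64.4% and 63.4%. Both comparisons use the WT basal libraries, so their orders are not independent, and no test of the order was made. The other 3 comparisons did not show this order. In KO CPZ CD11c-low against WT CPZ CD11c-high the share was larger with distance over the first 4 bins (45.2%, 48.7%, 56.0% and 61.8%) and 36.4% of 22 peaks in the last. Between the WT cuprizone groups it ran from 58.1% in the nearest bin to 64.7% in the farthest, and between KO and WT CPZ CD11c-low from 64.4% to 100% in bins of 1 to 45 peaks.

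**Figure D2:**
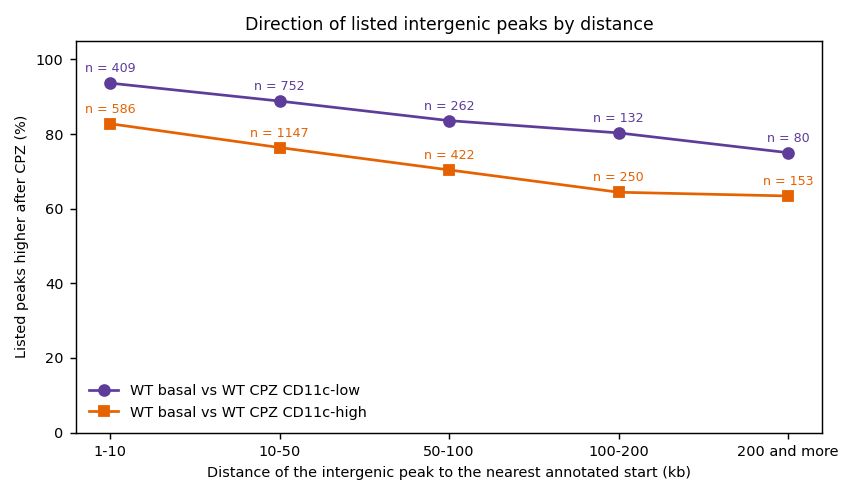
Share of listed intergenic peaks under 5 kb wide that were higher after cuprizone (y axis, percent) by distance to the named TSS (x axis, kb bins), with a line for each of the 2 comparisons with WT basal and the number of peaks beside each point. Against WT basal the share goes from 93.6% to 75.0% in WT CPZ CD11c-low and from 82.8% to 63.4% in WT CPZ CD11c-high.

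The distal peak with the largest difference lay upstream of Igf1, which encodes the growth factor insulin-like growth factor 1. At chr10:87694955-87697489, 162 kb upstream of the Igf1 TSS, WT basal libraries held 0 and 4.34 tags and WT CPZ CD11c-low libraries 173 and 169. This is a log2 difference of 6.22 ± 0.68 (SE, n = 2 per group; limma, Benjamini-Hochberg adjusted p = 0.00023). In CD11c-high cells the overlapping peak had 0 and 4.22 tags in WT basal and 344 and 375 after cuprizone (7.30 ± 0.73, adjusted p = 0.00036 in limma). The CD11c-high libraries also stood above the CD11c-low ones, at 443 and 482 against 221 and 217 tags (1.07 ± 0.18, limma adjusted p = 0.00059). A narrow peak at chr10:87711747-87712247, 146.3 kb upstream, had 1.60 and 0 tags in WT basal and 17.8 and 25.4 in CD11c-high cells. Both Igf1 regions were thus nearly unmarked in WT basal libraries, with the shallower library at 0 in one and the deeper at 0 in the other.

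Slc7a11, the transport subunit of the cystine/glutamate exchanger, had the region listed in the most comparisons at the highest level. At chr3:50605245-50609098, 163.6 kb upstream, WT basal libraries had 7.99 and 19.0 tags and WT CPZ CD11c-high libraries 572 and 589 (log2 difference 5.44 ± 0.41, limma adjusted p = 0.00019). The narrower peak called in the CD11c-low comparison rose from 6.57 and 15.2 to 244 and 219 tags (4.39 ± 0.38, limma adjusted p = 0.00011). On the scale of the 2 cuprizone groups, CD11c-low had 350 and 310 tags and CD11c-high 710 and 731 (1.13 ± 0.18, limma adjusted p = 0.00053). The 3 WT groups did not overlap here.

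Near Kcnj2, which encodes an inward rectifier potassium channel, the peak at chr11:111323492-111327851 held 13.1 and 29.3 tags in WT basal and 422 and 363 in CD11c-low cells (4.25 ± 0.38, limma adjusted p = 0.00013). In CD11c-high cells the region had 758 and 690 tags against 12.8 and 30.6 (5.12 ± 0.42, limma adjusted p = 0.00022). A second region, chr11:111441278-111445966, 377.5 kb downstream of the TSS, went from 99.05 and 90.7 tags in WT basal to 730 and 814 in CD11c-high cells. The first region was thus low in WT basal libraries, and the second was marked in them before cuprizone.

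Other large rises lay near noncoding or little studied genes. The peak 131.9 kb downstream of 5830454E08Rik had 0 and 5.42 tags in WT basal and 66.7 and 71.2 in CD11c-low cells. That 101.0 kb upstream of 4933417E11Rik had 11.5 and 8.67 against 307 and 236 tags. In CD11c-high cells the peak near Lyzl1 had 70.2 and 45.4 tags and both WT basal libraries had 0, which is at least 29.1-fold higher against a floor of 3 reads over the group. Near 1700020M21Rik the CD11c-high libraries had 77.3 and 79.2 tags against 0 and 2.11, and near Lyplal1, a lysophospholipase-like gene, 101 and 94.6 against 0 and 5.27. These 5 peaks had limma adjusted p of 0.00086, 7.1e-05, 0.00016, 0.00033 and 0.0013 in that order. In the 2 comparisons with WT basal, 6 higher peaks had no reads in either WT basal library.

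The falls named here were the largest among peaks of at least 50 tags in WT basal, so they began at marked peaks by that choice. At F630206G17Rik, chr11:45537557-45540372, WT basal libraries had 122 and 66.1 tags and CD11c-low libraries 19.6 and 26.0 (log2 difference -1.94 ± 0.34, limma adjusted p = 0.0014). In CD11c-high cells the same interval had 6.22 and 4.61 tags against 118 and 64.3 (-3.79 ± 0.36, limma adjusted p = 0.00031). The Naaladl2 peak at chr3:25052573-25054142, 269.4 kb upstream, fell from 131.0 and 77.0 tags to 6.22 and 4.61 in CD11c-high cells (-4.00 ± 0.34, limma adjusted p = 0.00024). In both, WT basal replicate 1 was higher than replicate 2, and neither library came near the cuprizone values. The Naaladl2 distance is to the TSS named for that peak. In GRCm38.p6 the coding genes on either side of it are Tbl1xr1 and Nlgn1, so it may lie within a longer form of Naaladl2. The largest falls at any level were at peaks of fewer tags, chosen after their values were seen: near Dock1 in CD11c-low cells (9.86 and 11.9 to 0 and 0.84 tags, -3.13) and at another F630206G17Rik region in CD11c-high cells (47.9 and 28.5 to 0.89 and 0 tags, -4.79).

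Further falls in CD11c-low cells were at 4930591A17Rik (96.9 and 72.6 to 18.8 and 26.8 tags), H2al2a (57.5 and 55.3 to 13.3 and 19.3) and 1700057H15Rik (62.4 and 46.6 to 14.9 and 15.9). In CD11c-high cells they were at Cdh26, which encodes a cadherin (107 and 75.9 to 8.00 and 11.5 tags), and Tmem114, 656.7 kb from its TSS (99.05 and 91.7 to 12.4 and 9.23). All 5 had limma adjusted p of 0.00087 or less. The peak at LOC100861615, chr14:6426438-6428017, fell from 241 and 177 to 63.5 and 64.5 tags in CD11c-low cells, but it has a near-identical copy elsewhere in the genome, so its reads may be shared. Such copies were found for 7 of the 457 regions (at least 98% identity over at least 50% of their length), all on chromosome 14 between positions 4498399 and 6437867, and all 7 were lower than WT basal.

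Between the 2 WT cuprizone groups 38 distal intergenic peaks were listed, 25 higher in CD11c-high than in CD11c-low cells and 13 lower. Over all 449 listed peaks 53.7% were higher and 46.3% lower, against 65.8% of the distal intergenic peaks higher. Of listed intergenic peaks under 100 kb from a TSS, 61.6% were higher. The median level went from 35.2 to 100.3 tags in higher peaks and from 95.4 to 43.6 in lower ones. Among peaks whose higher group held 50 tags or more, the largest rise was near Lyplal1 (36.0 and 34.4 to 126 and 117 tags, log2 difference 1.76 ± 0.18), followed by Gm12669 (40.7 and 39.4 to 115 and 153, 1.70 ± 0.21). A further rise was at the importin gene Ipo5 (21.8 and 28.3 to 79.4 and 75.4, 1.60 ± 0.20). Another was at Ankrd55 (36.0 and 32.3 to 107 and 93.5, 1.52 ± 0.19). An Slc7a11 peak at chr3:50693817-50695008 rose from 21.8 and 33.4 to 80.5 and 90.7 tags (1.63 ± 0.24). All 5 had limma adjusted p of 0.00037 or less. At any level the largest was near Sec61b (1.89 and 4.04 to 20.96 and 20.04 tags, 2.49), a peak chosen after its values were seen.

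Lower in CD11c-high cells were peaks at Tmem114 (50.2 and 61.6 to 14.3 and 10.5 tags, log2 difference -2.09 ± 0.22) and F630206G17Rik (136 and 180 to 45.2 and 53.4, -1.65 ± 0.21). The peak near Zc3h12c, whose product is an RNase, went from 47.4 and 57.6 to 16.5 and 16.2 tags (-1.61 ± 0.19), and that near Cdh26 from 68.2 and 78.8 to 22.1 and 28.6 (-1.51 ± 0.21). These 4 had limma adjusted p of 0.00032 or less. The LOC100861615 peak with a near-identical copy was also among them (72.0 and 63.7 to 23.2 and 22.9 tags).

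KO CPZ CD11c-low cells differed from WT CPZ CD11c-low cells at 11 distal intergenic peaks, 10 higher and 1 lower. Over all 271 listed peaks 81.9% were higher and 18.1% lower. The largest difference among peaks of at least 50 tags was near Tex29, chr8:12016325-12018551, with 15.0 and 15.0 tags in WT and 91.4 and 75.1 in KO cells (log2 difference 2.39 ± 0.24, limma adjusted p = 0.0013). Near the ribosomal protein gene Rpl34 the peak rose from 70.3 and 74.0 to 206 and 187 tags (1.43 ± 0.23, limma adjusted p = 0.0035). At Rap2a, which encodes a small GTPase of the Ras family, chr14:120659631-120662768 had 191 and 178 tags in WT and 382 and 422 in KO cells (1.12 ± 0.23, limma adjusted p = 0.0056), a sign that turned under TMM scaling (-0.16). The lower peak was upstream of Marcks, a substrate of protein kinase C, with 212 and 180.1 tags in WT and 79.3 and 95.6 in KO cells (-1.16 ± 0.25, limma adjusted p = 0.0064).

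Of these 10 higher peaks, 4 leaned on KO replicate 1, which had at least 2 times the tags of replicate 2, whereas 26 of all 222 listed higher peaks (11.7%) did. They were at Tab2, an adaptor of the TAK1 kinase (0 and 2.00 tags in WT, 40.8 and 6.82 in KO), Clic5 (4.69 and 5.00, 66.1 and 9.75) and Ipo5 at chr14:120755551-120756501 (6.56 and 3.00, 69.4 and 9.75). The last was Ipo5 at chr14:120740488-120742663 (47.8 and 50.0, 248 and 114). With KO replicate 1 left out, the log2 differences went from 3.38 to 2.18 at Tab2, from 2.20 to 0.88 at Clic5, from 2.32 to 0.97 at the first Ipo5 peak and from 1.76 to 1.21 at the second. The Spred1 peak (an inhibitor of Ras signalling), with 136 and 115 tags in WT and 358 and 217 in KO cells, went from 1.15 to 0.79. In that fit each peak's own spread comes from the WT libraries alone and the lone KO library is assumed to vary like them, and its limma adjusted p, at most 0.047 at these 5 peaks, rests on that. The Spred1 sign turned under TMM (-0.13). Without WT CPZ CD11c-low replicate 1, 5 higher and 0 lower peaks were called by limma, and without replicate 2, 4 and 1. TMM scaling moved the median of all listed peaks by -1.27 and left 1 higher and 1 lower call (50.0% higher). Tab2, Clic5 and the first Ipo5 peak fall outside the naming rule and were picked after their values were seen.

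Against WT CPZ CD11c-high cells, KO CPZ CD11c-low cells had 29 higher and 27 lower distal intergenic peaks. This comparison changes the genotype and the CD11c gate together, and their parts cannot be told apart. Of the 29, 27 were called by limma, and over all 909 listed peaks 57.2% were called higher and 42.1% lower. The 2 that were not called were the Ipo5 and Clic5 peaks led by KO replicate 1 (67.8 and 9.53 tags, limma adjusted p = 0.062, and 64.6 and 9.53, adjusted p = 0.082). Higher peaks went from a median of 24.4 to 81.4 tags and lower peaks from 132 to 49.6.

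Among peaks whose higher group held 50 tags or more, the higher peaks were led by Chst1, a carbohydrate sulfotransferase gene, with 32.0 and 34.1 tags in WT CPZ CD11c-high and 151 and 207 in KO cells (log2 difference 2.38 ± 0.22, limma adjusted p = 0.0018). Trps1, a transcriptional repressor gene, had 11.7 and 22.2 against 77.5 and 61.9 tags (2.03 ± 0.34). The Tex29 peak stood at 19.2 and 22.2 against 89.3 and 73.4 tags (1.92 ± 0.20), and Chsy1, a chondroitin synthase gene, at 26.7 and 22.2 against 74.3 and 120.0 (1.92 ± 0.29). These last 3 had limma adjusted p of 0.0037 or less. At any level the largest difference was near C630043F03Rik, where KO replicate 1 led (0 and 0.92 against 42.0 and 4.76 tags, 3.51), a peak chosen after its values were seen.

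Among peaks of at least 50 tags, those with the largest falls in KO CPZ CD11c-low from WT CPZ CD11c-high cells included the Slc7a11 peak at chr3:50693817-50695008 (77.9 and 87.7 to 19.4 and 8.57 tags, log2 difference -2.58 ± 0.39) and the Lyplal1 peak (122 and 114 to 18.3 and 23.8, -2.44 ± 0.20). Dapk1, a death-associated kinase gene, had 80.0 and 85.8 against 16.2 and 17.2 tags (-2.25 ± 0.17), and Gm12669 had 111 and 148 against 37.7 and 25.7 (-2.0 ± 0.27). The Kcnj2 peak at chr11:111323333-111328213 had 910 and 828 against 237 and 276 tags (-1.76 ± 0.18). All 5 had limma adjusted p of 0.0032 or less. The highest level among the lower peaks was at the second Kcnj2 region, chr11:111441278-111445966, with 876 and 977 against 419 and 472 tags (-1.06). At the region listed most often, Slc7a11 chr3:50605245-50609098, the values were 687 and 707 against 235 and 203 tags (-1.67 ± 0.18, limma adjusted p = 0.0021).

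Of the 457 regions, 240 were listed in 1 comparison, 180 in 2, 32 in 3 and 5 in 4. Besides the Slc7a11 region, those listed in 4 lay near F630206G17Rik, Rap2a, Gm12669 and Noct, the gene of the circadian protein nocturnin. The F630206G17Rik region at chr11:45593907-45597754 had 501 and 323 tags in WT basal against 138 and 173 in CD11c-low cells, and 487 and 314 against 47.1 and 53.1 in CD11c-high cells. Against the latter, KO CPZ CD11c-low cells had 141 and 146 tags where WT CPZ CD11c-high had 45.9 and 58.1. The Noct region rose from 6.57 and 5.42 to 102 and 87.1 tags in CD11c-low cells and from 6.39 and 4.22 to 200.0 and 161 in CD11c-high cells, and had 245 and 196 tags in CD11c-high against 90.4 and 85.7 in KO cells. The Rap2a region rose in CD11c-low cells (54.2 and 34.7 to 123 and 109 tags) and in CD11c-high cells (46.3 and 26.4 to 72.9 and 86.9), and stood higher in KO cells than in both WT cuprizone groups. Its signs against WT basal turned under TMM scaling (-0.12 for CD11c-low, -0.29 for CD11c-high).

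In 2 pairs of comparisons no library is shared. Of the 210 regions of WT basal against WT CPZ CD11c-low, 15 (7.14%) were also among the 56 of WT CPZ CD11c-high against KO CPZ CD11c-low (26.8%). Of the 15, 11 were higher after cuprizone and lower in KO than in CD11c-high cells, 2 were higher in both and 2 were lower after cuprizone and higher in KO cells. Of the 402 regions of WT basal against WT CPZ CD11c-high, 3 (0.746%) were among the 11 of WT against KO CPZ CD11c-low (27.3%), all higher in both. No test of these overlaps was made, and the same shares over all listed peaks were not counted.

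A total of 13 intervals were listed with the same coordinates in enough comparisons to give reads in all 4 groups, so their levels could be put on 1 scale (reads divided by relative depth). All 13 were lowest in WT basal and highest in WT CPZ CD11c-high, and KO CPZ CD11c-low lay between them without overlap. Each had been listed in comparisons of WT CPZ CD11c-high with every other group, so the choice of lists fixes that this group differs from them. Sharing coordinates across those lists also favours intervals called in WT CPZ CD11c-high cells, so its place as highest is not a separate result. The choice does not fix the order of WT basal and KO CPZ CD11c-low, which no list compares. None of the 13 was listed in the comparison of KO with WT CPZ CD11c-low. At 7 of them both KO libraries were below both WT CPZ CD11c-low libraries, at 6 they overlapped, and at none were both above. At Slc7a11 chr3:50605245-50609098 the scaled reads were 8.90 and 21.1 in WT basal, 218 and 188 in KO CPZ CD11c-low, 314 and 279 in WT CPZ CD11c-low and 638 and 656 in WT CPZ CD11c-high. At Dapk1 they were 7.12 and 14.1, 15.0 and 15.9, 28.9 and 33.6, and 74.3 and 79.7 in the same order. At Ankrd55 KO and WT CPZ CD11c-low overlapped, with 52.0 and 31.8 against 32.3 and 29.0 scaled reads. At Slc7a11 and Dapk1 no neighbours in this order overlapped.

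**Figure D3:**
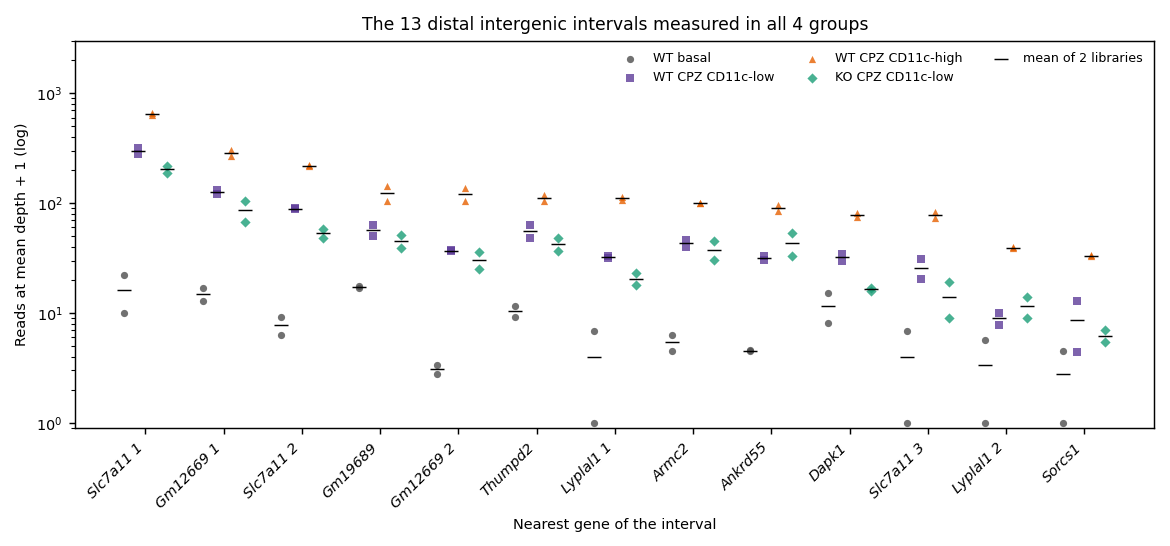
Reads at mean depth + 1 (y axis, log scale) in each of the 8 libraries at the 13 intervals with values in all 4 groups, with points for the 2 libraries of each group and a dash for their mean. WT basal is lowest and WT CPZ CD11c-high highest at all 13, the latter favoured by how the intervals were chosen. KO CPZ CD11c-low is below WT CPZ CD11c-low without overlap at 7.

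Many regions lay close to others of the same direction. With gaps of at most 100 kb between neighbours, the 457 regions fell into 265 clusters, of which 166 held 1 region, 99 held 2 or more and 28 held 4 or more. In all, 291 regions (63.7%) had a neighbour within a cluster. Only peaks sharing at least 1 bp were joined and no smallest gap was set, so parts of 1 marked stretch can count as neighbours. In 1 Mir5127 cluster, for example, 3 regions lay within 2.8 kb. Of the 93 clusters with at least 2 regions compared with WT basal, 79 (85.0%) held 1 direction only. When all listed peaks were treated the same way, 8731 regions gave 3164 clusters, 83.9% of the regions were clustered and 76.04% of the clusters held 1 direction, but those clusters have more members and so more chances to be mixed. Chromosome 10 held the most regions (54), followed by chromosomes 3 (36), 4 (35) and 8 (33). Against WT basal 286 regions were higher, 150 lower and 21 had no listed comparison.

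**Figure D4:**
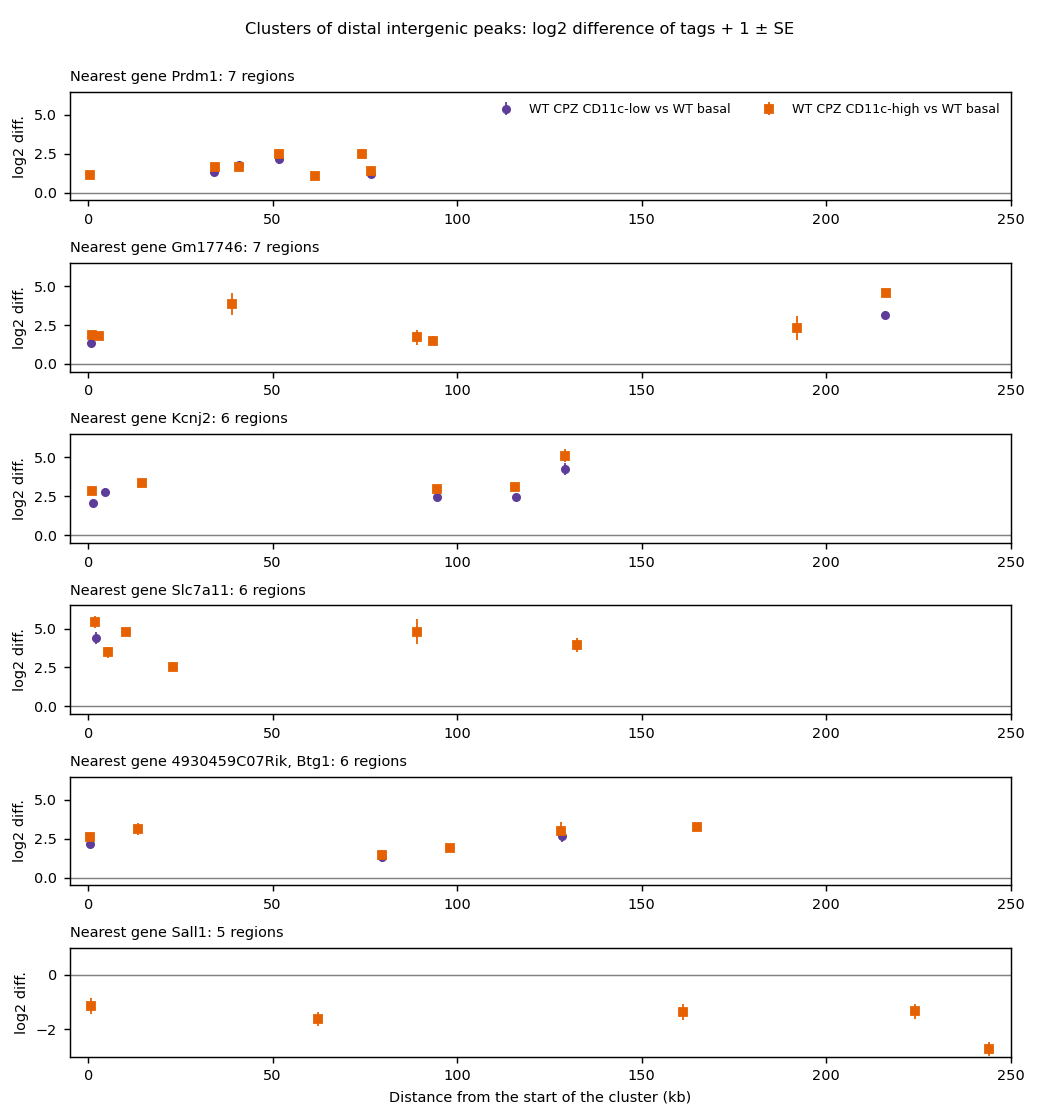
Distal intergenic peaks in 6 clusters by distance from the start of the cluster (x axis, kb), with the log2 difference of tags + 1 from WT basal (y axis, bars are SE) in WT CPZ CD11c-low and CD11c-high cells. The first 5 clusters are all above 0, although 5 Prdm1, 1 Gm17746 and 2 4930459C07Rik differences turn under TMM scaling, and those of the Sall1 cluster, which was chosen after its values were seen, are all below 0.

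The largest cluster lay upstream of Prdm1, which encodes the transcriptional repressor BLIMP-1. Its 7 regions spanned 78.5 kb from chr10:44625074 to 44703603 and were all higher than WT basal. The highest, at chr10:44700087-44703603, had 257 and 181 tags in WT basal and 557 and 581 in CD11c-high cells (log2 difference 1.39 ± 0.27, limma adjusted p = 0.0032). The largest in fold, at chr10:44698959-44699459, had 6.39 and 3.16 against 32.0 and 28.4 tags (2.49 ± 0.34, limma adjusted p = 0.00088). A middle region, chr10:44676553-44677266, had 8.21 and 11.9 tags in WT basal and 45.5 and 48.6 in CD11c-low cells, and 57.8 and 57.7 in CD11c-high cells against 7.99 and 11.6. The sign of the Prdm1 differences depends on the scaling, and TMM on a list of changed peaks cannot decide it. Under TMM, 5 of the 11 listed differences turned negative (between -0.08 and -0.39), those of the best marked regions among them.

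A second cluster of 7 regions at Gm17746 spanned 217.2 kb of chromosome 12, with Id2, an inhibitor of helix-loop-helix factors, 204.4 kb away as the nearest coding gene. All 7 were higher than WT basal. Its strongest region, chr12:25515843-25517752, went from 4.79 and 6.33 tags to 149 and 159 in CD11c-high cells (4.57 ± 0.25, limma adjusted p = 0.00016), and in the comparison with KO cells 179 and 191 against 52.8 and 99.1. The region at its other end, chr12:25300537-25301931, had 52.6 and 46.6 tags in WT basal and 123 and 134 in CD11c-low cells, and turned under TMM (-0.16).

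The Kcnj2 cluster held 6 regions over 131.7 kb, all higher than WT basal. Besides the peak already given, chr11:111310059-111314284 had 102 and 75.9 tags in WT basal and 781 and 757 in CD11c-high cells (3.11 ± 0.26, limma adjusted p = 0.00024), and chr11:111289896-111292136 had 33.6 and 50.6 against 330 and 331 (2.97 ± 0.29). Both narrow members, at chr11:111200692-111201192 and chr11:111210796-111211296, stayed under 33 tags in every library.

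In the Slc7a11 cluster, 6 regions spread over 132.9 kb between Slc7a11 and Noct, and all were higher in CD11c-high than in WT basal cells. The second strongest, chr3:50614397-50616481, had 4.79 and 7.38 tags in WT basal and 193 and 197 in CD11c-high cells (4.81 ± 0.28, limma adjusted p = 0.00016). The same interval had 99.4 and 97.03 tags in CD11c-low against 239 and 244 in CD11c-high cells, and 231 and 236 in CD11c-high against 61.4 and 50.5 in KO cells. The weakest, chr3:50610231-50610731, had 0 and 1.05 against 15.1 and 14.6 tags.

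A cluster of 6 regions over 165.4 kb of chromosome 10, between Eea1 and Btg1 (an antiproliferative gene), was also higher than WT basal throughout. Its strongest region, chr10:96337518-96338660, had 30.4 and 19.0 tags in WT basal and 149 and 154 in CD11c-high cells (2.61 ± 0.30, limma adjusted p = 0.00053). At chr10:96502398-96502898, 114.4 kb upstream of Btg1, the values were 4.79 and 4.22 against 61.3 and 43.8 tags. The region at chr10:96416737, named for 4930459C07Rik, turned under TMM (-0.002 for CD11c-high, -0.16 for CD11c-low).

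Clusters of lower regions were smaller. A set of 5 regions upstream of Sall1, the zinc finger factor that maintains microglial identity, spanned 244.5 kb and were all lower in CD11c-high than in WT basal cells. They ran from chr8:89353336-89357001 (158 and 125 to 45.3 and 63.8 tags, -1.37 ± 0.29, limma adjusted p = 0.004) to chr8:89437735-89438369 (12.8 and 9.49 to 0.89 and 0.77, -2.72 ± 0.26). None of the 5 was listed in the CD11c-low comparison. At Trim33, an E3 ligase gene of the TGF-beta pathway, 4 of 5 regions were lower in CD11c-high cells than in WT basal, for example 78.3 and 66.4 to 16.0 and 14.6 tags at chr3:103393137-103395293. In the same cluster 2 peaks were higher in KO than in WT CPZ CD11c-high cells, the larger with 305 and 333 against 92.8 and 131 tags (1.52 ± 0.23, limma adjusted p = 0.0031). A cluster of 4 regions upstream of the chemokine receptor gene Cxcr4 was higher, with 628 and 616 tags in CD11c-high cells against 43.1 and 22.1 in WT basal at chr1:128703970-128708343. The Trim33 and Cxcr4 clusters were named after their values were seen.

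The nearest genes were read against 13 gene lists (271 genes). Of 50 lineage and signal transcription factors, 7 had a distal intergenic region, namely Jun, Klf4, Maf, Mef2a, Prdm1, Runx1 and Sall1, with 17 regions higher and 8 lower than WT basal. The Prdm1 cluster gives 7 of the 17, with signs that depend on the scaling, and the Sall1 cluster 5 of the 8. Of 26 homeostatic microglia genes, Sall1 and Gpr165 had 6 regions, all lower, of which 5 form the Sall1 cluster. The Gpr165 peak, chrX:96607932-96612026, had 317 and 257 tags in WT basal and 104 and 157 in CD11c-low cells (-1.16 ± 0.29, limma adjusted p = 0.0059), and 308 and 249.9 against 54.2 and 56.9 in CD11c-high cells (-2.30 ± 0.25). Of 30 disease-associated microglia genes, Igf1 and Dkk2, a Wnt pathway modulator, had 3 regions, all higher, Dkk2 with 14.4 and 12.6 against 55.1 and 62.3 tags in CD11c-high cells. For comparison, 286 of the 436 regions compared with WT basal were higher, and regions of the same cluster are not independent.

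Of 30 NF-kB, cytokine and chemokine genes only Nfkbiz, which encodes the nuclear regulator IkB-zeta, had regions, 2 that were both higher. One had 115 and 86.5 tags in WT basal and 310 and 294 in CD11c-high cells (1.59 ± 0.26, limma adjusted p = 0.0017), and the other 67.4 and 58.6 against 209 and 205 in CD11c-low cells (1.70 ± 0.24). Of 27 adhesion and guidance genes, Itga4, Flrt2 and Adgrl2 had 1 higher region each. Itga4, the integrin alpha-4 gene, had 52.1 and 91.98 tags in CD11c-low and 142 and 176 in CD11c-high cells (1.18 ± 0.28, limma adjusted p = 0.003). Flrt2 had 0 and 4.22 against 30.2 and 32.3 tags, and Adgrl2 51.1 and 21.1 against 83.5 and 86.9 with a sign that turned under TMM (-0.10). Of 29 lipid and cholesterol genes, Mylip, whose product degrades the LDL receptor, had 1 higher region (262 and 198 to 469 and 449 tags in CD11c-high cells, 1.01 ± 0.26, limma adjusted p = 0.0087), which also turned under TMM (-0.47). None of the 30 interferon and MHC genes had a distal intergenic region, although 18 of them had a listed peak of another kind. Among genes with any listed peak, 7 of 37 transcription factors, 2 of 18 homeostatic and 2 of 26 disease-associated genes had one. So did 1 of 24 NF-kB, cytokine and chemokine, 1 of 22 lipid and 3 of 6 adhesion genes. The share over all nearest genes was not counted. The rule also leaves out any peak under 100 kb from its TSS, so this absence is not read as a trait of these genes.

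Regions near markers of other cells were few. F13a1, of monocytes and border macrophages, had 1 region with 0 and 1.05 tags in WT basal and 19.6 and 21.5 in CD11c-high cells. Bach2, of lymphocytes, had 1 with 30.4 and 25.3 against 97.8 and 86.1 tags. Kdr, of endothelium, had 2 lower regions, one with 88.7 and 46.6 against 25.1 and 28.5 tags in CD11c-low cells and the other with 20.8 and 10.5 against 2.67 and 1.54 in CD11c-high cells. The lists for oligodendrocytes, astrocytes and neurons had none. What part such cells have in the tag counts was not tested.

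The central 1000 bases of each peak were searched on both strands for PU.1 (GAGGAAGT), AP-1 (TGANTCA), C/EBP (TTGCNNAA), IRF (GAAANNGAA), RUNX (TGTGGTT), the MiT/TFE E-box (TCACGTG), SMAD (GTCTAGAC) and, by name, MEF2 and NF-kB. The PU.1 letters were found in 21.1% of the distal intergenic peaks and 15.7% of all listed peaks, the C/EBP letters in 44.9% and 37.9%, and the AP-1 letters in 35.7% and 31.2%. In listed intergenic peaks under 100 kb from a TSS, with the same width limit, these 3 shares were 16.2%, 38.8% and 34.3%. For IRF the shares were 34.9% and 32.6%, for RUNX 21.8% and 23.2%, for NF-kB 8.61% and 12.8%, for MiT/TFE 4.58% and 6.12%, for MEF2 4.17% and 2.97% and for SMAD 1.94% and 1.28%. Median GC content was 44.9% in the distal intergenic peaks and 47.2% in all listed, and the part of base composition in these shares was not tested. A match is a string of letters and not a bound site, and the motifs may overlap each other.

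Peaks that were higher and lower than WT basal differed most in AP-1 and C/EBP letters. AP-1 was matched in 40.8% of 424 higher and 24.1% of 191 lower distal intergenic peaks, against 33.1% and 23.3% of all listed. C/EBP was matched in 49.5% and 34.0%, against 39.4% and 32.3%. PU.1 was matched in 23.4% and 18.3%, against 15.6% and 15.8%, and RUNX in 20.3% and 27.2%, against 24.4% and 19.7%. Many of these peaks are the same region listed in 2 comparisons, and no test was made. The peak centre fell on an LTR repeat in 8.47% of distal intergenic and 7.26% of all listed peaks, and on a SINE in 4.17% and 7.94%. In listed intergenic peaks under 100 kb from a TSS the LTR share was 11.8% and the SINE share 9.54%, both above those of the distal peaks.

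**Figure D5:**
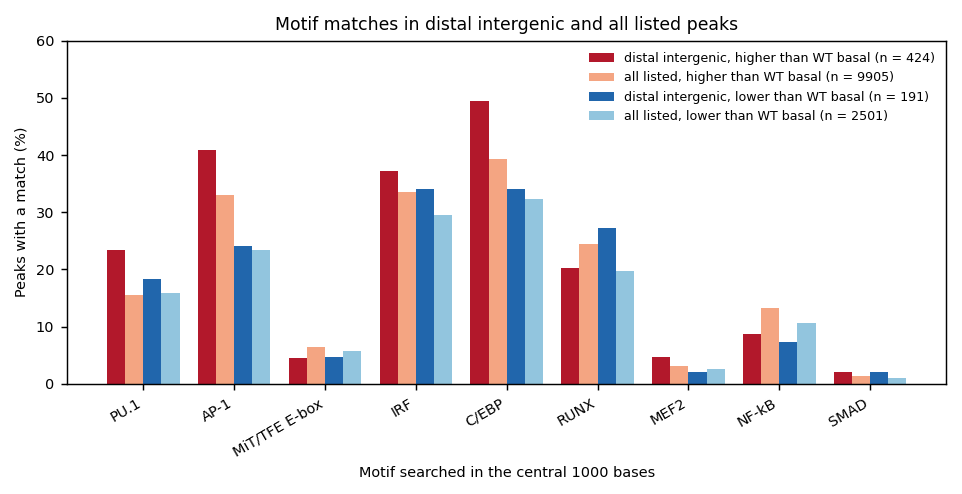
Share of peaks (percent) with each motif in the central 1000 bases, as bars for distal intergenic peaks and all listed peaks that were higher or lower than WT basal. AP-1 stands at 40.8% of higher and 24.1% of lower distal intergenic peaks.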

How the data were processed

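H3K27ac ChIP-seq and input libraries were made from sorted microglia, 19 samples in all, of which 8 H3K27ac libraries have values. Per the labels and methods, the authors used Bowtie2, FastQC 0.11.9, SAMtools 0.1.19 and HOMER, merged peaks of the 2 groups of a comparison and tested them with DESeq2. The deposited signal is a normalized tag count per library, scaled within each comparison. Only peaks past the authors' threshold are listed, so unchanged peaks were not analysed here. The deposited log2 fold change and p-value columns hold the authors' own test and were not used, nor were 6 expression tables with 19 per-library columns. The methods name hg19 and the labels hg19 and mm10. Stated TSS distances matched GRCm38.p6 within 100 bp for 709 of 713 peaks, so mm10 was used.

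Members were taken from the files by annotation, distance and width. The members and gene lists were chosen with earlier results of these data known. Log2(tags + 1) was fitted with limma 3.58.1 (R 4.3.3) over all listed peaks of a comparison, with Benjamini-Hochberg adjustment and a threshold of 0.05. Named peaks are the 5 with the largest difference per comparison and direction (adjusted p under 0.05, at least 50 tags in the higher group, 1 per gene), the 6 regions listed most often, all regions of the 5 largest clusters and up to 3 peaks per gene list. Some items that this rule selects are not reported here. Whole reads were recovered for 100% of values within 0.006 tags plus a small fraction of the value of 1 read. Alternatives were a pseudocount of 5, a filter at 50 tags, edgeR 4.0.16 and DESeq2 1.42.0 on the recovered reads, TMM scaling, a replicate block, leaving out each library, other distance and width limits, autosomes, other cluster gaps and a 500-base motif window. The fit was tested on simulated data. Counts carry counting error only, and PCR reads are not independent molecules.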

Additional observations from a re-analysis of the deposited data

How the results depend on the processing

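Calls in all 5 comparisons kept their direction with a pseudocount of 5, on autosomes and at any width, and edgeR and DESeq2 on the recovered reads called all 720 peaks. The peaks had been listed because the authors' DESeq2 test called them on these same libraries, so that count was largely fixed in advance. TMM factors on the listed peaks left 39 higher calls (45.9% higher) in WT CPZ CD11c-low and 112 (43.4%) in CD11c-high against WT basal, and 1 (50.0%) in KO against WT CPZ CD11c-low. They moved the median of all listed peaks by -1.51, -1.45, -0.25, -1.27 and -0.42 in the 5 comparisons, to 0.03, 0.08, 0.78, 0.01 and 0.65. Over all members the sign turned under TMM at 66 of 212 (CD11c-low) and 53 of 403 peaks (CD11c-high) against WT basal and 4 of 11 in KO against WT CPZ CD11c-low, and 1 of the 403 was called in the opposite direction. Of 127 named differences, 86 kept their call under TMM, 27 lost it and 14 turned: Prdm1 at 44625074, 44657809, 44685482 and 44700087 (-0.35, -0.191, -0.393, -0.325 and -0.083), Rap2a (-0.161, -0.288 and -0.118), Spred1 (-0.125), Gm17746 (-0.159), 4930459C07Rik (-0.002 and -0.16), Mylip (-0.469) and Adgrl2 (-0.105). With at least 50 tags, 94 lower peaks remained to be called in CD11c-high against WT basal. At 50 kb or more from a TSS the higher and lower calls were 385 and 89, 555 and 270, 49 and 28, 28 and 3, and 55 and 49 in the 5 comparisons. At 200 kb or more they were 60 and 20, 97 and 56, 11 and 6, 1 and 0 (100% higher), and 8 and 14 (36.4% higher). Fewer peaks qualify at that distance, and the changes in share were not tested. Leaving out 1 library, where the lone library of a group is assumed to vary like the other group, gave 145 to 165 higher and 28 to 46 lower calls (78.2% to 83.8% higher) in CD11c-low and 224 to 256 and 117 to 134 in CD11c-high against WT basal, the lowest without replicate 1 of the cuprizone group. It gave 25 and 13 in CD11c-high against CD11c-low, 4 to 10 and 0 to 1 (80.0% to 100%) in KO against WT CPZ CD11c-low, and 25 to 29 and 25 to 27 in KO against CD11c-high. The replicate numbers did not pair the libraries (correlations of same-numbered deviations -0.053, -0.034, 0.136, -0.082 and -0.053), and the replicate block gave 29 and 27 calls in KO against CD11c-high and changed no other count. In the central 500 bases PU.1 was matched in 11.4%, AP-1 in 18.5%, MiT/TFE in 2.78%, IRF in 18.1%, C/EBP in 25.1%, RUNX in 9.72%, MEF2 in 2.64% and NF-kB in 4.44% of the peaks, a shorter window holding fewer matches. In all listed peaks these shares were 8.62%, 17.2%, 3.32%, 18.1%, 21.7%, 12.6%, 1.55% and 6.84% in the same order, so IRF no longer differed. AP-1 was matched in 18.6% of listed intergenic peaks under 100 kb from a TSS, so the distal peaks did not exceed these. Cluster gaps of 50 and 250 kb gave 301 and 231 clusters, the CD11c-high comparison alone 238, and leaving out regions with near-identical copies, an alternative chosen after seeing the data, 264. Depth limits the low peaks: 22 and 29 reads is the median in WT basal libraries, and lower groups of 0 to 3 reads give differences set largely by the pseudocount.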
